A study of Homo sapiens with 24 samples.

Results

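The mitotic kinesin motors described here were 10 genes: KIF11, KIF15 and KIFC1, KIF2C and KIF18A, KIF4A and KIF14, and KIF23, KIF20A and KIF20B. They were taken by name, as motors with an established role in cell division, with earlier results of these data known. Other kinesins with a mitotic role also meet this description and are counted apart below, so the counts describe these 10 genes only. The array carried 15 probe sets annotated to 1 of these genes alone (6 genes had 1 probe set, 3 had 2 and 1 had 3), and the probe set with the highest mean log2 signal over the 24 arrays stood for its gene. They were 10 of the 19775 genes that had a probe set of their own.

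Expression was profiled in MV4-11 and MOLM-14 cells, which are acute myeloid leukemia (AML) cell lines that carry FLT3-ITD, an activating duplication in the receptor tyrosine kinase FLT3. Each line was exposed for 24 hours to the combination of ABT-869 and SAHA, to SAHA (6 µM), to ABT-869 (3 nM) or to the DMSO control. This gave 8 groups, each of 3 cultures that the labels call biological replicates. ABT-869 inhibits FLT3 and related receptor kinases, and SAHA inhibits histone deacetylases. The doses inside the combination are not restated in the methods. For the arrays the methods give 1 ABT-869 dose for both lines, while the paper's colony assays used a higher dose for MOLM-14. Whether the array dose acted equally in both lines was not tested here. MV4-11 is known to have lost its wild-type FLT3 allele and MOLM-14 to keep 1 copy, and each line is a single model, so what differs between them cannot be put down to that allele. RNA from each culture was hybridised to 1 Affymetrix U133 Plus 2.0 array.

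Kinesins are motor proteins that walk along microtubules or take them apart, using the energy of ATP. In mitosis one set of them pushes the spindle poles apart and bundles the spindle fibres, another moves chromosomes and trims microtubule ends at the kinetochore, and a further set builds the central spindle and drives the final split of the daughter cells. Transcripts of most of these motors build up in G2 and mitosis and are low in resting cells. Their promoters often carry a CHR, the cell cycle genes homology region, to which MuvB complexes bind (the repressor DREAM in resting cells, the activator with B-MYB and FOXM1 in G2), and an upstream CCAAT box, which NF-Y binds.

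The promoters of the members were read from the RefSeq table for GRCh38.p14, which holds 250 bases before and 50 bases after each annotated start, and all 10 were found in it. A CHR hexamer (TTTGAA or TTTAAA, on either strand, the second of which reads the same on both) was present in 10 of 10 members, against 24.0% of all 35116 promoters of the same length. From 100 bases before the start onward the counts were 10 of 10 members, 0 of 19 other kinesins with a promoter in the table, and 11.2% of all promoters. CCAAT, on either strand, was found in 8 of 10 members (all but KIF15 and KIF2C), against 34.6% of all promoters. Over the whole window the hexamer was found in 3 of 6 other kinesins with a mitotic role, 2 of 19 other kinesins, 14 of 15 spindle and midzone partners, 2 of 15 regulators of G2/M transcription, 1 of 12 G1/S genes, 2 of 11 dynein and tubulin genes, 3 of 8 myeloid markers and 1 of 4 markers of other cell types. A match describes letters and is not a binding site. The following 4 are shown because they are the members with the largest fall (KIF2C), a call that differed between the lines (KIF20A), and calls in both lines (KIF4A, KIF11). Each runs 5′ to 3′ from 100 bases before to 20 bases after the start, on the plus strand of GRCh38.p14, at chr1:44739737-44739856 for KIF2C, chr5:138179012-138179131 for KIF20A, chrX:70290004-70290123 for KIF4A and chr10:92593030-92593149 for KIF11. Capitals mark the CHR hexamer and the CCAAT box.
KIF2C: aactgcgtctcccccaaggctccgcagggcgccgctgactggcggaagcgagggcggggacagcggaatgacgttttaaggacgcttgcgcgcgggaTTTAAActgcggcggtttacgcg
KIF20A: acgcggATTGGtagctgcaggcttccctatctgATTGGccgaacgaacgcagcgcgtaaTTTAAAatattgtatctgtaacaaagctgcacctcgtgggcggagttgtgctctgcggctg
KIF4A: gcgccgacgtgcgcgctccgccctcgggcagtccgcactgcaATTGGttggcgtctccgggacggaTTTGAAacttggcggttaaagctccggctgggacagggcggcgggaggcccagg
KIF11: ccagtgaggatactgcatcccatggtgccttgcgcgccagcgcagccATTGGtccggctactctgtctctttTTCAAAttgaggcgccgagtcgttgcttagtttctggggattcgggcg
The hexamer of KIF2C began 3 bases before the start, that of KIF11 28, that of KIF4A 34 and that of KIF20A 41 bases before it. In KIF14 a hexamer lay 2 bases into the transcript, in KIFC1 5, and in KIF20B 25 and 31 bases into it. KIF14 and KIF23 had a second, more distant hexamer, 198 and 211 bases before the start.

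**Figure D1:**
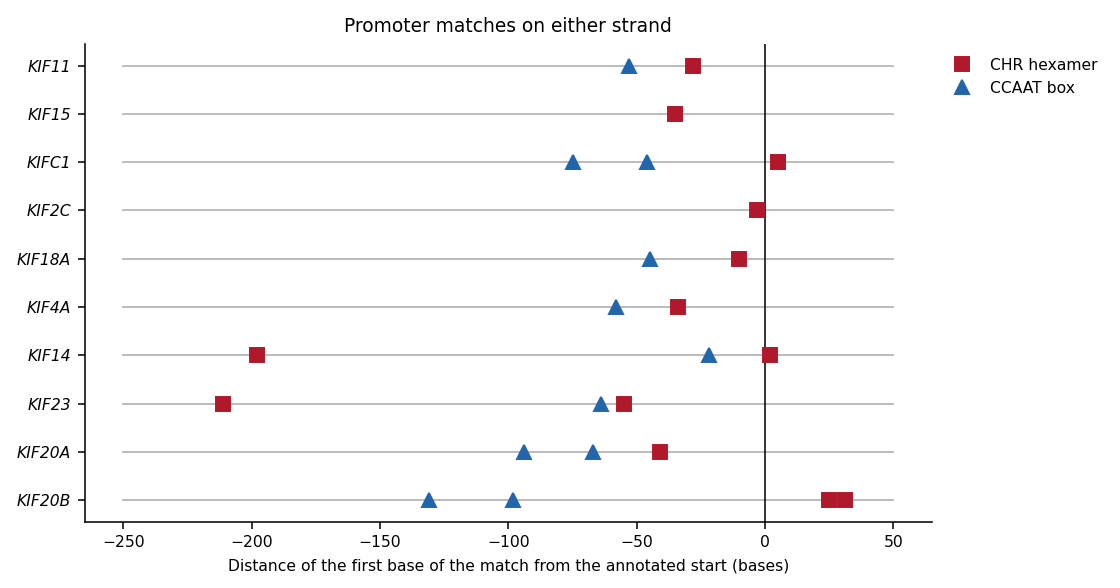
Positions of CHR hexamers (squares) and CCAAT boxes (triangles) in the promoters of the 10 members, 1 grey line per gene from 250 bases before to 50 bases after the annotated start (0 on the horizontal axis, in bases). All 10 genes have a square within 55 bases of the start, and 8 of 10 have a triangle.

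The values were the authors' linear signals, in arbitrary units, already on a common scale, with a mean trimmed by 2% on either side that was the same for every array. Between probe sets they cannot be compared, because probes differ in brightness, so each gene is set only against itself. The log2 signals were compared with limma, per line over 12 arrays, and between lines in 1 fit over 24 arrays. A probe set was called at an adjusted p under 0.05 (Benjamini-Hochberg over all 54613 probe sets tested), and the 95% intervals given below are for the single gene. The median signal was 61.2 to 80.6 on MOLM-14 arrays and 78.5 to 99.4 on MV4-11 arrays, and all 10 main probe sets read 142.8 or more on every array. Arrays that stood apart from their group (SD of the log2 deviations over 0.3) were MV4-11 combination replicates 2 and 3, MV4-11 ABT-869 replicate 2, MOLM-14 combination replicate 1 and MOLM-14 DMSO replicate 3. The SD was taken over probe sets with a mean log2 signal above the median. It ran from 0.2355 to 0.3296 with no clear gap at 0.3 (MOLM-14 combination replicate 3 at 0.2973, MOLM-14 DMSO replicate 3 at 0.3036). The myeloid genes PTPRC, FLT3, SPI1, CEBPA, MPO, LYZ, CSF1R and ITGAM read 210.6 or more on every array in both lines. The monocyte marker CD14 was under 32 on 8 of 12 MOLM-14 arrays and 11 of 12 MV4-11 arrays. FCGR1A was also dim, with a median of 41.0 in MOLM-14 and 45.25 in MV4-11.

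With the combination, all 10 mitotic kinesins fell in MV4-11 cells, 8 of them by at least 2-fold. The largest falls were those of KIF2C (to 0.27 of the DMSO level), KIFC1 (0.31), KIF20A and KIF23 (both 0.39), and the smallest those of KIF11 (0.58) and KIF20B (0.69). All 10 were called lower, against 4.05% of all probe sets in that direction. In all 10 the 3 combination arrays lay below the 3 DMSO arrays with no overlap, as in 14.1% of all probe sets. The members were chosen with earlier results known, so these counts are a description. The median log2 change was −1.25, and that of all probe sets was −0.02. In bulk RNA, fewer cells in mitosis and less RNA per dividing cell cannot be told apart. KIF23 was no longer called without DMSO replicate 1, 2 or 3 or combination replicate 1 (adjusted p from limma 0.0527 to 0.0594), nor was KIF20B without DMSO replicate 1 (0.0589).

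In MOLM-14 cells the combination lowered 4 of the 10, namely KIF2C (to 0.61 of DMSO), KIF15 (0.62), KIF4A (0.64) and KIF11 (0.67), against 2.8% of all probe sets called lower. The other 6 had log2 changes of −0.60 to −0.23 and did not pass the test, and none of the 10 changed by 2-fold. The arrays did not overlap in 8 of the 10, as in 11.7% of all probe sets. The median change was −0.52, against 0.03 for all probe sets. KIF15 was no longer called without DMSO replicate 1 or 2 or any 1 of the 3 combination arrays (adjusted p from limma 0.0501 to 0.0694). KIF4A was lost without DMSO replicate 1 or 2 or combination replicate 2, and in these 3 cases 2 of 10 were called.

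**Figure D2:**
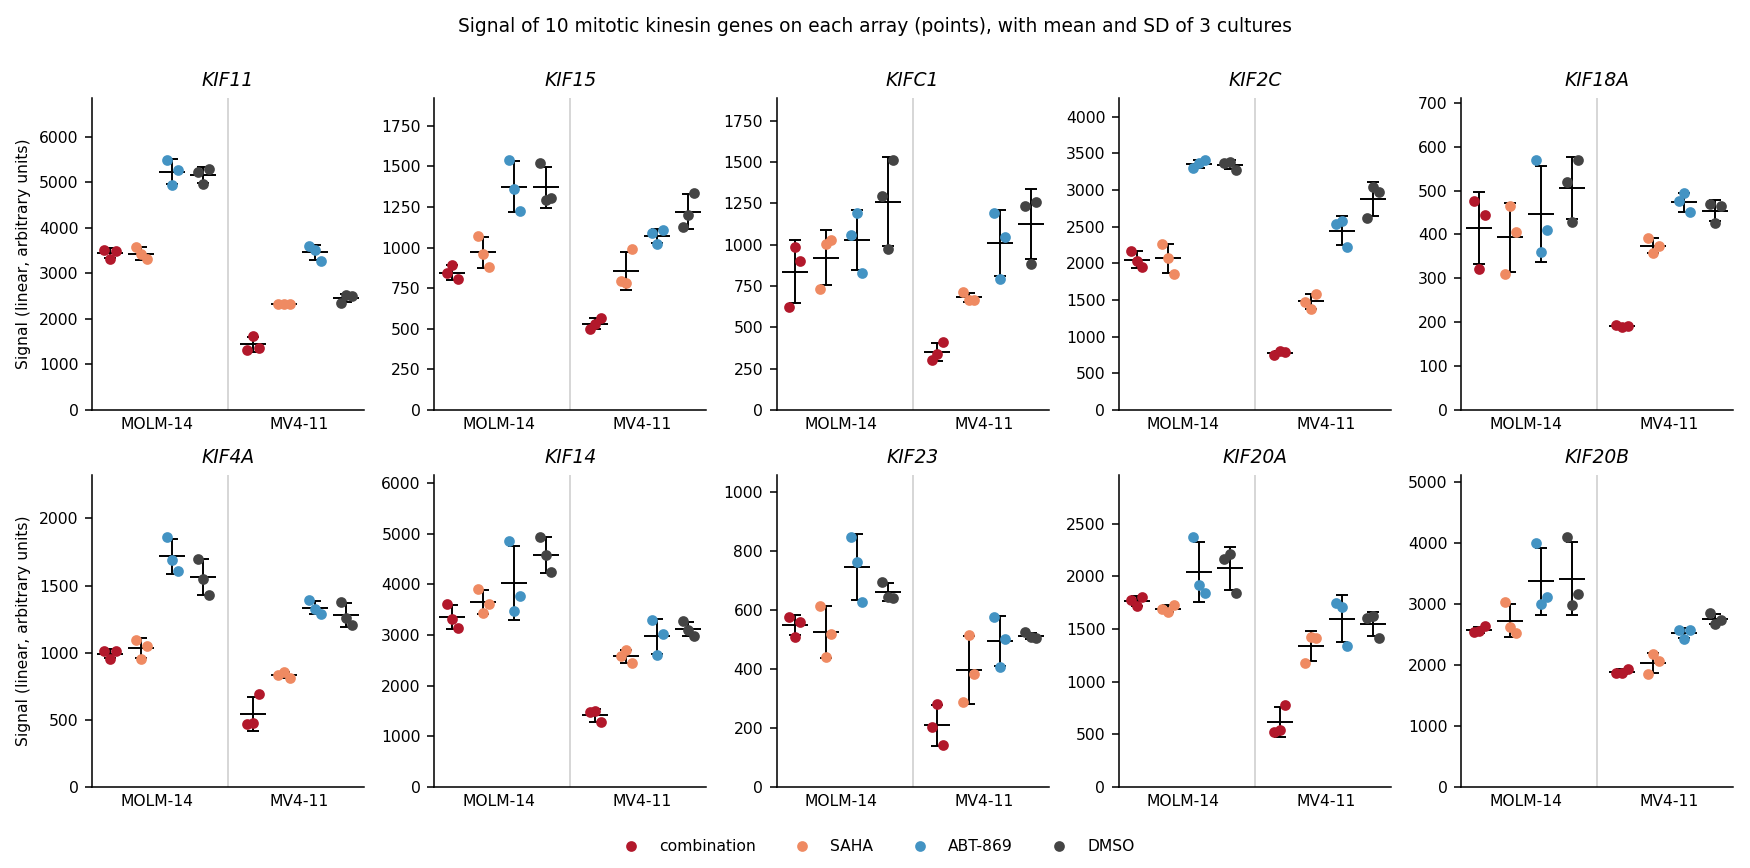
Linear signal (vertical axis, arbitrary units, from 0) of the main probe set of each of the 10 kinesins on each of 24 arrays, with MOLM-14 left and MV4-11 right of the grey line. Points are cultures and bars are the mean and SD of 3 cultures. In MV4-11 the combination points lie below the DMSO points in all 10 panels.

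The first group of motors sets up the bipolar spindle. KIF11 (Eg5) slides antiparallel microtubules apart and is needed to separate the poles. Its signal in MV4-11 was 1327.2, 1633.8 and 1358.0 with the combination, 2335.9, 2322.0 and 2336.7 with SAHA, 3602.7, 3507.1 and 3271.0 with ABT-869, and 2346.3, 2527.6 and 2501.8 with DMSO. It was thus the only member whose ABT-869 arrays all lay above the DMSO arrays, and its SAHA arrays lay just below them. In MOLM-14 the signals were 3509.5, 3315.4 and 3494.6 with the combination, 3575.4, 3423.1 and 3310.8 with SAHA, 5488.0, 4944.1 and 5267.1 with ABT-869, and 5232.6, 4967.8 and 5282.5 with DMSO. Here the combination and SAHA arrays lay together, below the ABT-869 and DMSO arrays, which overlapped. The log2 change with the combination was −0.78 ± 0.118 (SE, adjusted p = 0.0046 from limma) in MV4-11 and −0.59 ± 0.096 (0.0103) in MOLM-14.

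KIF15 (Hklp2) can keep a bipolar spindle open when KIF11 is blocked. MV4-11 arrays gave 498.0, 527.0 and 566.3 with the combination, 791.9, 782.8 and 991.3 with SAHA, 1088.8, 1019.0 and 1105.6 with ABT-869, and 1124.2, 1203.0 and 1336.3 with DMSO. The 4 MV4-11 groups did not overlap. MOLM-14 arrays gave 841.1, 891.7 and 804.3 with the combination and 1517.5, 1294.6 and 1304.0 with DMSO, again without overlap. The change was −1.20 ± 0.135 (SE, adjusted p = 0.00124 from limma) in MV4-11 and −0.70 ± 0.131 (0.0173) in MOLM-14.

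KIFC1 (HSET) walks the other way, toward the minus end, focuses the poles and clusters extra centrosomes. In MV4-11 it read 303.8, 339.7 and 412.0 with the combination, 714.3, 664.8 and 665.4 with SAHA, 1189.3, 793.5 and 1048.1 with ABT-869, and 1232.2, 882.5 and 1260.6 with DMSO. The combination arrays were lowest and those of SAHA next, with no overlap between them or with the other arrays. In MOLM-14 it read 624.1, 986.3 and 900.9 with the combination and 1296.8, 975.3 and 1512.4 with DMSO, and the groups overlapped. The change was −1.67 ± 0.203 (SE, adjusted p = 0.00174 from limma) in MV4-11, and −0.60 in MOLM-14, where it was not called (95% interval −1.15 to −0.04, adjusted p = 0.229).

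The second group acts on chromosomes and microtubule ends, and KIF14, a motor of the central spindle and midbody, is described with it. KIF2C (MCAK) does not walk but takes microtubules apart at the kinetochore, which corrects wrong attachments. MV4-11 cultures gave 747.4, 803.0 and 784.9 with the combination, 1479.1, 1383.2 and 1583.0 with SAHA, 2539.6, 2579.5 and 2218.9 with ABT-869, and 2621.1, 3047.1 and 2972.5 with DMSO. These 4 groups formed 4 steps without overlap. MOLM-14 cultures gave 2171.1, 2029.8 and 1949.6 with the combination, 2267.4, 2073.2 and 1858.6 with SAHA, 3300.1, 3362.8 and 3408.8 with ABT-869, and 3368.9, 3387.1 and 3273.8 with DMSO. Combination and SAHA overlapped there, as did ABT-869 and DMSO, with a gap between the pairs. The change with the combination was −1.89 ± 0.121 (SE, adjusted p = 0.00014 from limma) in MV4-11 and −0.71 ± 0.107 (0.00775) in MOLM-14.

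KIF18A dampens the swinging of chromosomes at the metaphase plate. Its MV4-11 signals were 193.3, 189.8 and 191.3 with the combination, 392.9, 358.4 and 372.7 with SAHA, 476.1, 493.6 and 450.2 with ABT-869, and 469.8, 426.7 and 465.8 with DMSO. The 3 combination arrays differed by under 4 units and lay far below the rest. Its MOLM-14 signals were 476.8, 320.6 and 445.4 with the combination and 519.1, 429.0 and 569.5 with DMSO, and overlapped. The change was −1.24 ± 0.105 (SE, adjusted p = 0.000336 from limma) in MV4-11 and −0.30 in MOLM-14 (95% interval −0.84 to 0.24, adjusted p = 0.588, not called).

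KIF4A is a chromokinesin that binds chromosome arms and, with PRC1, sets the length of the central spindle. In MV4-11 it gave 470.5, 476.5 and 691.6 with the combination, 835.9, 859.3 and 812.7 with SAHA, 1393.1, 1325.0 and 1291.4 with ABT-869, and 1374.2, 1260.8 and 1203.7 with DMSO. Combination replicate 3, an array that stood apart, was the highest of its group and still below every SAHA array. In MOLM-14 it gave 1013.3, 952.3 and 1010.0 with the combination, 1097.5, 950.3 and 1048.5 with SAHA, 1860.6, 1688.9 and 1606.5 with ABT-869, and 1698.8, 1551.8 and 1432.0 with DMSO. Combination and SAHA overlapped and both lay below the other 2 groups. The change was −1.25 ± 0.159 (SE, adjusted p = 0.00211 from limma) in MV4-11 and −0.65 ± 0.115 (0.0133) in MOLM-14.

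KIF14 brings citron kinase to the central spindle and midbody. MV4-11 signals were 1479.8, 1497.0 and 1273.8 with the combination, 2579.2, 2709.8 and 2453.8 with SAHA, 3288.5, 2603.2 and 3022.1 with ABT-869, and 3275.7, 3096.0 and 2987.2 with DMSO. The combination lay apart from all other MV4-11 arrays. MOLM-14 signals were 3610.4, 3319.6 and 3145.6 with the combination and 4932.3, 4573.1 and 4236.1 with DMSO, and did not overlap. The change was −1.14 ± 0.130 (SE, adjusted p = 0.0013 from limma) in MV4-11 and −0.45 in MOLM-14, where it was not called (95% interval −0.77 to −0.12, adjusted p = 0.119).

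The last group acts in cytokinesis. KIF23 (MKLP1) forms centralspindlin with RACGAP1 and had the largest standard error of the 10 in MV4-11. It gave 203.7, 282.1 and 142.8 with the combination, 287.3, 516.7 and 383.0 with SAHA, 577.3, 407.9 and 502.1 with ABT-869, and 524.3, 508.9 and 505.3 with DMSO in MV4-11. The combination arrays lay below all others, and the SAHA arrays reached into the range of DMSO. It gave 574.7, 509.9 and 560.1 with the combination and 695.9, 643.4 and 641.8 with DMSO in MOLM-14. The change was −1.35 ± 0.280 (SE, adjusted p = 0.0181 from limma) in MV4-11 and −0.27 in MOLM-14 (95% interval −0.62 to 0.08, adjusted p = 0.421, not called).

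KIF20A (MKLP2) carries the chromosomal passenger complex to the midzone. The MV4-11 signals were 526.0, 543.2 and 780.1 with the combination, 1173.6, 1423.5 and 1418.1 with SAHA, 1745.4, 1712.5 and 1342.2 with ABT-869, and 1605.8, 1623.8 and 1418.6 with DMSO. Again combination replicate 3 was the highest of its group, and below every other array. The MOLM-14 signals were 1772.0, 1719.2 and 1805.9 with the combination and 2169.7, 2216.9 and 1841.2 with DMSO, without overlap. The change was −1.35 ± 0.187 (SE, adjusted p = 0.00293 from limma) in MV4-11 and −0.23 in MOLM-14 (95% interval −0.52 to 0.06, adjusted p = 0.395, not called).

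KIF20B (MPP1) is needed for the completion of cytokinesis, and moved least in MV4-11. Its signals there were 1858.7, 1869.3 and 1938.4 with the combination, 1847.6, 2177.9 and 2056.6 with SAHA, 2574.8, 2427.3 and 2571.8 with ABT-869, and 2847.7, 2671.9 and 2732.4 with DMSO. Combination and SAHA overlapped, unlike in the other 9 genes. In MOLM-14 it gave 2540.2, 2552.5 and 2634.7 with the combination and 4091.9, 2983.6 and 3160.0 with DMSO, of which DMSO replicate 1 was the highest. The change was −0.54 ± 0.109 (SE, adjusted p = 0.0156 from limma) in MV4-11 and −0.39 in MOLM-14 (95% interval −0.76 to −0.03, adjusted p = 0.226, not called).

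SAHA alone lowered KIF2C in both lines. In MV4-11 it was the 1 member called, at a log2 change of −0.96 ± 0.121 (SE, adjusted p = 0.00599 from limma), against 0.996% of all probe sets called lower. The other 9 had changes between −0.71 (KIFC1) and −0.08 (KIF11). Of these, 5 were at an unadjusted p under 0.05, beside 8693 of 54613 probe sets in either direction. The value of KIF11 was 0.01 when the arrays were centred on their medians. The median over the 10 was −0.43, against −0.05 for all probe sets. In MOLM-14, SAHA lowered KIF11 (−0.59 ± 0.096, adjusted p = 0.0132), KIF2C (−0.70 ± 0.107, adjusted p = 0.0106) and KIF4A (−0.60 ± 0.115, adjusted p = 0.0217), against 2.58% of all probe sets called lower. The other 7 lay between −0.50 and −0.29. The median over the 10 was −0.41, beside −0.14 for all probe sets (−0.16 beside 0.11 when the arrays were centred on their medians). Without SAHA replicate 2 or 3 only KIF2C was called, and KIF4A was also lost without DMSO replicate 1 or 2. Without MV4-11 combination replicate 3, KIF4A was called beside KIF2C in MV4-11 (adjusted p = 0.0274 from limma).

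ABT-869 alone gave no call among the 10 in either line, where 0.862% of all probe sets were called in either direction in MV4-11 and 0.0165% in MOLM-14. At an unadjusted p under 0.05 the counts were 1 of 10 (KIF11, higher) in MV4-11 and 0 of 10 in MOLM-14. Over all 54613 probe sets they were 7298 and 3970 in either direction. The KIF11 change in MV4-11 was 0.49 ± 0.118, with 3 of 3 ABT-869 arrays above all DMSO arrays (95% interval 0.23 to 0.76, adjusted p = 0.11 from limma). In 3 other members (KIF15, KIF20B and KIF2C) the MV4-11 ABT-869 arrays all lay below the DMSO arrays. Such separations were not counted over all probe sets. The other 9 lay between −0.24 and 0.06 in MV4-11, and the 10 between −0.29 and 0.16 in MOLM-14.

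**Figure D3:**
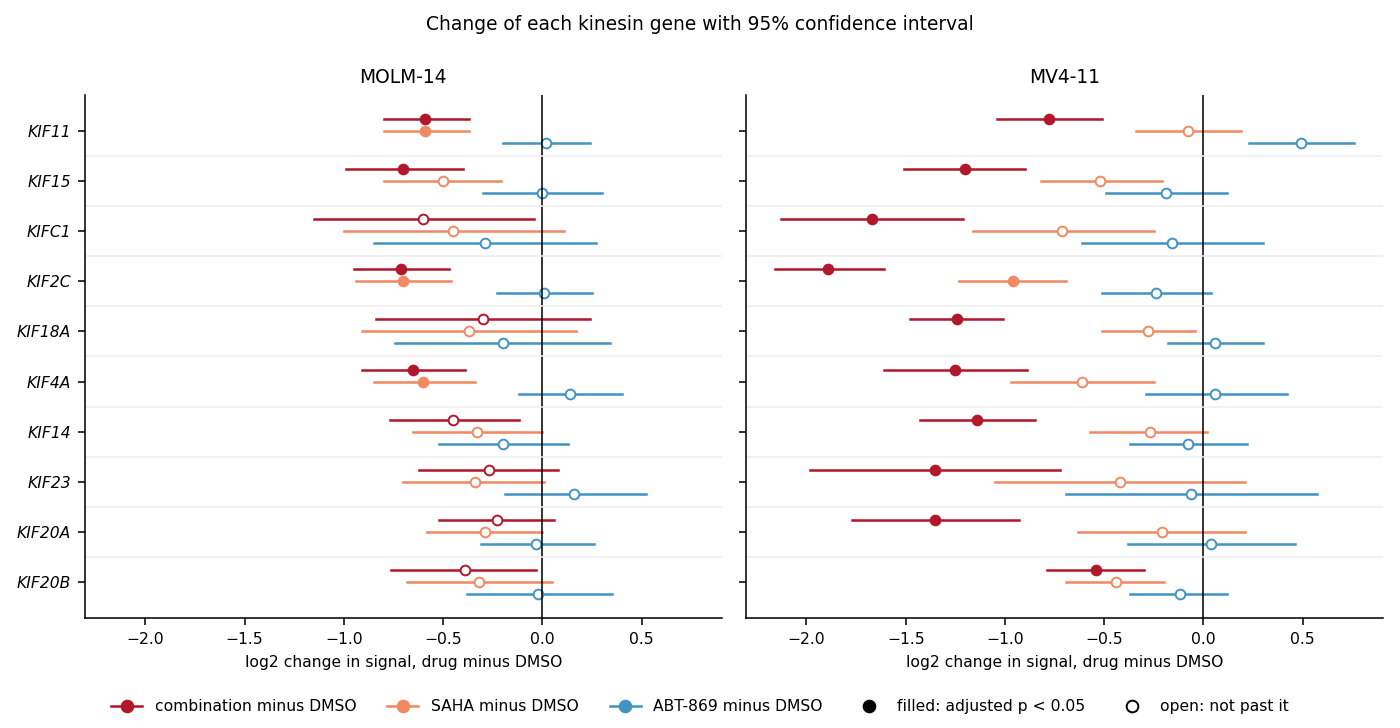
Log2 change in signal against DMSO (horizontal axis) for each kinesin with its 95% confidence interval, in MOLM-14 (left) and MV4-11 (right), for the combination, SAHA and ABT-869. Filled points passed an adjusted p under 0.05. All 10 combination points are filled in MV4-11 and 4 in MOLM-14, and no ABT-869 point is filled.

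The combination was also set against each drug alone, gene by gene, and the genes were not tested against each other. Against SAHA alone, the combination was lower in MV4-11 for KIF20A (−1.14 ± 0.187), KIF18A (−0.97 ± 0.105), KIF2C (−0.93 ± 0.121), KIF14 (−0.87 ± 0.130) and KIF11 (−0.70 ± 0.118), with adjusted p from limma of 0.00718 to 0.039 and 0.566% of all probe sets called lower. KIFC1 (−0.96), KIF23 (−0.93), KIF15 (−0.68) and KIF4A (−0.64) did not pass the test. The arrays of 9 of the 10 genes did not overlap, but the share of all probe sets without overlap was not counted for this comparison. KIF20B stood at −0.10 (95% interval −0.34 to 0.15). Leaving out any 1 of the 12 MV4-11 arrays left 1 to 4 members called, and only the KIF18A call was kept each time. KIF4A was called without combination replicate 3 (−0.82, adjusted p = 0.0369). In MOLM-14 the combination and SAHA gave no call (0.0146% of all probe sets in either direction). At an unadjusted p under 0.05 there were 0 of 10 members, beside 5272 of 54613 probe sets in either direction. The differences were −0.19 to 0.07, against 0.11 for the median of all probe sets. For KIF11 the interval was −0.21 to 0.22 and for KIF2C −0.25 to 0.23, while for KIFC1 it was as wide as −0.71 to 0.41.

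Against ABT-869 alone, 9 of 10 were lower with the combination in MV4-11 (1.81% of all probe sets), from −1.65 ± 0.121 for KIF2C to −1.01 ± 0.135 for KIF15. KIF20B was not called (−0.42, adjusted p = 0.0723 from limma). KIF23 lost its call without any 1 of the DMSO or ABT-869 arrays, SAHA replicate 3, or combination replicate 1 or 3 (adjusted p 0.0656 to 0.121). In MOLM-14, 4 were lower (3.54% of all probe sets): KIF4A (−0.79 ± 0.115), KIF2C (−0.71 ± 0.107), KIF15 (−0.70 ± 0.131) and KIF11 (−0.60 ± 0.096). KIF15 lost its call without combination replicate 3 (adjusted p = 0.0517).

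The departure from additivity is the combination effect minus the sum of the single effects on the log2 scale. In MV4-11 it was below 0 for 9 of 10 members, with a median of −0.80 against −0.02 for all probe sets, and lowest for KIF11 (−1.19 ± 0.168, adjusted p = 0.0833 from limma). KIF20A (−1.18) and KIF18A (−1.03) followed, and KIF20B was at 0.02. None of the 10 was called, beside 0.022% of all probe sets. At an unadjusted p under 0.05, 8 of the 10 were lower, beside 4512 of 54613 probe sets in either direction. In MOLM-14 the departures were −0.20 to 0.27 with a median of −0.02, against 0.10 for all probe sets. There 0 of 10 were called (0.0128% of all probe sets). At an unadjusted p under 0.05 there were also 0, beside 4056 of 54613 probe sets in either direction.

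The size of the response to the combination was compared between the lines as the MOLM-14 change minus the MV4-11 change. The difference was positive, so the fall was smaller in MOLM-14, for all 10 genes, and was called for 4, against 3.14% of all probe sets called in that direction. These were KIF2C (1.18 ± 0.141, adjusted p = 8.61e-05 from limma), KIF20A (1.12 ± 0.216, adjusted p = 0.00361), KIF18A (0.95 ± 0.254, adjusted p = 0.0318) and KIF14 (0.69 ± 0.180, adjusted p = 0.0254). KIF23 (1.08, adjusted p = 0.0537), KIFC1 (1.07, adjusted p = 0.0527), KIF4A (0.60, adjusted p = 0.0596) and KIF15 (0.51, adjusted p = 0.0994) did not pass the test. KIF11 (0.19, 95% interval −0.08 to 0.47) and KIF20B (0.15, −0.23 to 0.53) had the smallest differences. The KIF14 call was lost without MOLM-14 combination replicate 1, MOLM-14 DMSO replicate 2 or 3, MV4-11 combination replicate 3 or MV4-11 DMSO replicate 1 or 2, and the KIF18A call without MOLM-14 combination replicate 1 or 3, MOLM-14 DMSO replicate 1 or 2, any MV4-11 combination array or MV4-11 DMSO replicate 1 or 3 (adjusted p 0.0543 to 0.0899). Without MOLM-14 DMSO replicate 2 or MV4-11 DMSO replicate 1, 2 of 10 were called. KIF2C and KIF20A kept their calls without any 1 array. Calls were also gained when 1 array was left out. KIFC1 was called without MOLM-14 combination replicate 1, MOLM-14 SAHA replicate 1, MOLM-14 DMSO replicate 3, MV4-11 combination replicate 3, MV4-11 ABT-869 replicate 2 or MV4-11 DMSO replicate 2 (adjusted p 0.0241 to 0.0495 from limma). KIF23 was called without MV4-11 combination replicate 2 or MV4-11 SAHA replicate 1 or 2 (0.0144 to 0.0394), and KIF4A without MV4-11 combination replicate 3 (0.78, adjusted p = 0.00323). The responses to SAHA and to ABT-869 gave no called difference between the lines (1.23% and 0.352% of all probe sets in either direction). KIF11 was the 1 member at an unadjusted p under 0.05 in each (−0.51 ± 0.130 with SAHA, adjusted p = 0.0659 from limma, and −0.47 ± 0.130 with ABT-869, adjusted p = 0.167). Over all 54613 probe sets, 6386 and 5585 had an unadjusted p under 0.05 in either direction. The SAHA difference of KIF11 was called without MV4-11 combination replicate 2 (adjusted p = 0.0402).

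**Figure D4:**
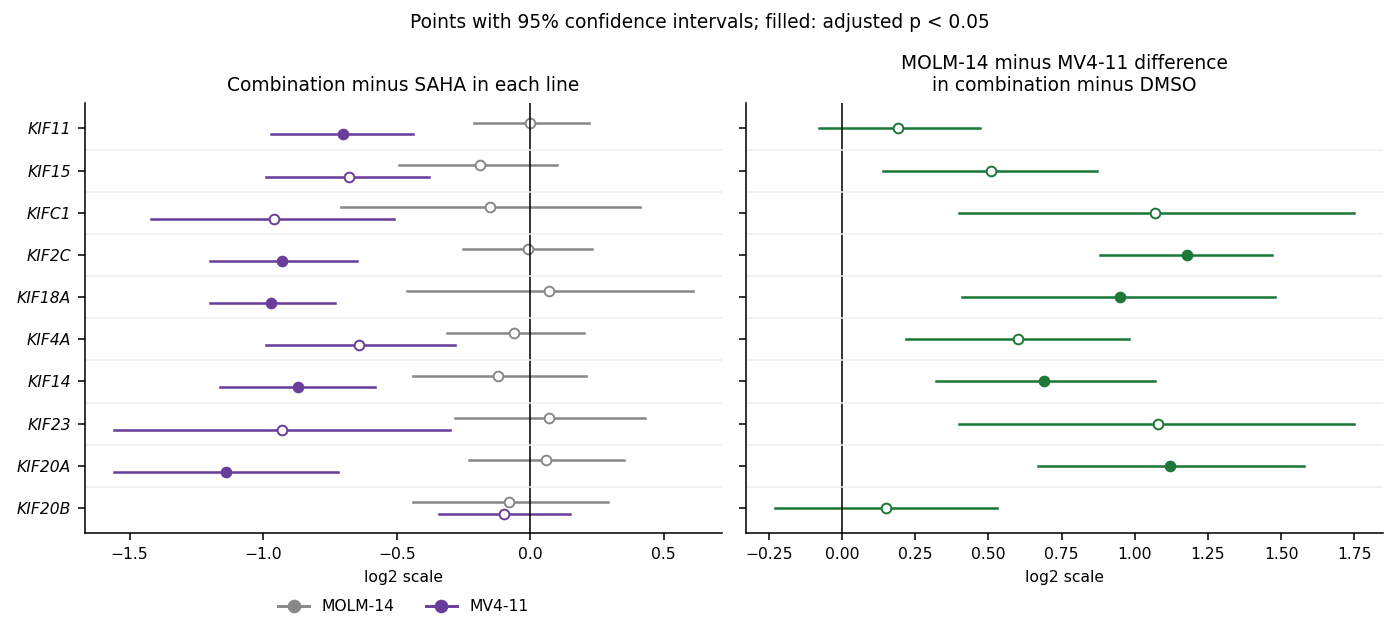
Left, log2 difference between the combination and SAHA alone in MOLM-14 (grey) and MV4-11 (purple). Right, MOLM-14 minus MV4-11 difference in the combination effect. Points are single genes with 95% confidence intervals, filled where the adjusted p was under 0.05. The 10 grey points lie between −0.19 and 0.07, and all 10 green points lie to the right of 0.

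With DMSO, MOLM-14 cells had more KIF11 (1.07 ± 0.092 on the log2 scale, adjusted p = 2.04e-06 from limma) and more KIF14 (0.55 ± 0.127, adjusted p = 0.00926) than MV4-11 cells. These were the 2 called of 10, beside 4.96% of all probe sets called higher. The other 8 were 0.15 to 0.42 higher and did not pass the test. At an unadjusted p under 0.05, 6 of the 10 were higher, beside 12040 of 54613 probe sets in either direction. The median was 0.29, against −0.15 for all probe sets. KIF20A was also called without MV4-11 combination replicate 3 (0.42, adjusted p = 0.0444), and KIFC1 was at −0.01 without MV4-11 DMSO replicate 2.

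In the order of group means, the MV4-11 combination was the lowest of the 8 groups for all 10 genes, and it lay below its neighbour without overlap for 9. How often this held over all probe sets was not counted. The exception was KIF20B, where MV4-11 SAHA overlapped it. The highest group was MOLM-14 DMSO for 5 genes (KIF14, KIF18A, KIF20A, KIF20B, KIFC1) and MOLM-14 ABT-869 for the other 5, and in every gene the highest group overlapped the next. That next group was the other one of these in 8 genes, MV4-11 ABT-869 for KIF18A and MV4-11 DMSO for KIFC1. Of the neighbours between MOLM-14 combination and MOLM-14 SAHA, which stood next to each other in 9 genes, all overlapped. Averaged over the 10 genes, the log2 signal was 10.34 to 10.39 in MOLM-14 with the combination, 10.39 to 10.44 with SAHA, 10.70 to 10.99 with ABT-869 and 10.78 to 10.95 with DMSO. In MV4-11 it was 9.17 to 9.29 with the combination, 9.97 to 10.08 with SAHA, 10.41 to 10.57 with ABT-869 and 10.46 to 10.51 with DMSO.

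Of the 5 further probe sets, the pair that were bright gave values near those of the main one for the combination against DMSO, but not for the lines with DMSO. The further KIF2C probe set read 420.9, 503.3 and 487.9 with the combination, against 1597.3, 1647.6 and 1610.7 with DMSO in MV4-11, a change of −1.79 ± 0.139 (adjusted p = 0.000256 from limma), and changed by −0.64 ± 0.122 in MOLM-14 (adjusted p = 0.018). That of KIF14 changed by −1.17 ± 0.114 in MV4-11 (adjusted p = 0.000628) and was also called in MOLM-14 (−0.47 ± 0.115, adjusted p = 0.0457), where its main probe set was not. Both were called for the difference between the lines in the combination effect (1.15 and 0.70). With DMSO, MOLM-14 minus MV4-11, the further KIF2C probe set stood at −0.07 and the main one at 0.22, neither of them called, and the further KIF14 probe set at 0.92 and the main one at 0.55, both called. That of KIF23 (39.2 to 159.1 units) was not called in either line (−1.11 in MV4-11, 0.06 in MOLM-14). The further KIF20B probe sets were dim, under 32 on 9 and 16 of 24 arrays, had standard errors of 0.722 to 0.998 and carry an x_at suffix, the mark of probes that can bind other transcripts, so they give no usable direction.

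The members moved together over the 24 arrays after the mean of each line was taken off, which is a description, since arrays share treatments. Pearson r lay between 0.649 and 0.954 over the 45 pairs, with a median of 0.83. KIF2C was most like the mean of the other 9 (r = 0.956) and KIF20B least (r = 0.813). Among 19765 other genes, those whose pattern was most like the mean of the 10 were BUB1, the checkpoint kinase (r = 0.987), TPX2, which activates Aurora A on the spindle (0.979), ASPM, a spindle pole protein (0.973), DEPDC1 (0.969) and HJURP, the chaperone that loads CENP-A at centromeres (0.968), and 56 genes were over 0.9. Their changes with the combination were −0.57 in MOLM-14 and −1.53 in MV4-11 for BUB1, −0.68 and −2.22 for HJURP, and −0.34 (not called) and −1.47 for ASPM.

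Genes set beside the motors were counted by the same test. With the combination, 1723 of 54613 probe sets were called higher and 1530 lower in MOLM-14, and 2669 higher and 2211 lower in MV4-11. Of 5 other kinesins with a mitotic role that were measured, 2 fell with the combination in MOLM-14 and 3 in MV4-11. They were KIF18B (−0.66 in MOLM-14, −0.74 in MV4-11), which shortens astral microtubules, KIF22 (−0.56 and −0.78), a chromokinesin, and in MV4-11 also CENPE (−1.65 ± 0.218, adjusted p = 0.00244 from limma), which brings chromosomes to the spindle equator. CENPE was at −0.36 in MOLM-14 (adjusted p = 0.345). The other 27 kinesins, mostly cargo motors, had medians of 0.05 and 0.15, with 2 and 4 called higher and 1 and 1 lower. KIF3A, a ciliary transport motor, rose in both (0.85 in MOLM-14, 1.10 in MV4-11), and so did KIF13A in MOLM-14 (0.99) and KIFC2 in MV4-11 (1.29). KIF17 fell in both (−1.13 and −2.78).

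The spindle and midzone partners of the motors fell with the combination in 8 of 19 cases in MOLM-14 (median −0.41) and in 17 of 19 in MV4-11 (median −1.07), and 10 of the 19 were called for a smaller fall in MOLM-14. Those that fell most were ECT2 (−0.79 ± 0.131, adjusted p = 0.0109 from limma), the exchange factor that activates RhoA for the cleavage furrow, and ANLN (−0.70) in MOLM-14, and HMMR (−2.44 ± 0.146, adjusted p = 0.000104), a spindle assembly factor, and PLK1 (−1.66), the mitotic kinase, in MV4-11. RACGAP1 and PRC1, named for their direct links to KIF23 and KIF4A with their values already seen, stood at −0.43 and −0.41 in MOLM-14, where RACGAP1 alone was called, and at −1.01 and −1.07 in MV4-11, where both were.

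The G1/S genes, which act before DNA replication, ran differently. All 15 fell in MOLM-14 with the combination (median −1.63), led by CDC6 (−2.26 ± 0.183, adjusted p = 0.00204 from limma) and MCM4 (−1.96), both needed to license origins. In MV4-11, 3 fell and 2 rose (median −0.07), with CDT1 at −1.09, MCM7 at −0.52, CCNE1 at 0.79 and CCNE2 at 0.76. Tested between lines, the combination effect was called for 14 of 15 G1/S genes, with the larger fall in MOLM-14, and for 4 of 10 kinesins, with the smaller fall there. Over all 54613 probe sets, 1864 were called in the direction of the G1/S genes and 1713 in that of the kinesins.

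Among 19 regulators of G2/M transcription, 7 fell and 1 rose in MOLM-14 (median −0.46), and 1 fell and 1 rose in MV4-11 (median −0.10). MYBL2, which encodes B-MYB, fell by 2.23 on the log2 scale in MOLM-14 (808.3 ± 88.7 with the combination and 3840 ± 809 with DMSO, SD, n = 3 each, adjusted p = 0.00312 from limma), and so did E2F1 (−1.32), while CDKN1A, the CDK inhibitor p21, rose (0.52). In MV4-11, LIN9, a MuvB subunit, fell (−1.30) and TFDP2 rose (0.92). Of 11 dynein and tubulin genes 2 rose and 1 fell in MOLM-14 (DYNC1LI2 0.55, DYNC1I2 0.40, TUBG1 −0.76), and 3 rose and 1 fell in MV4-11 (among them DYNC1H1 0.77, DYNLL1 0.76 and TUBB −0.54).

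**Figure D5:**
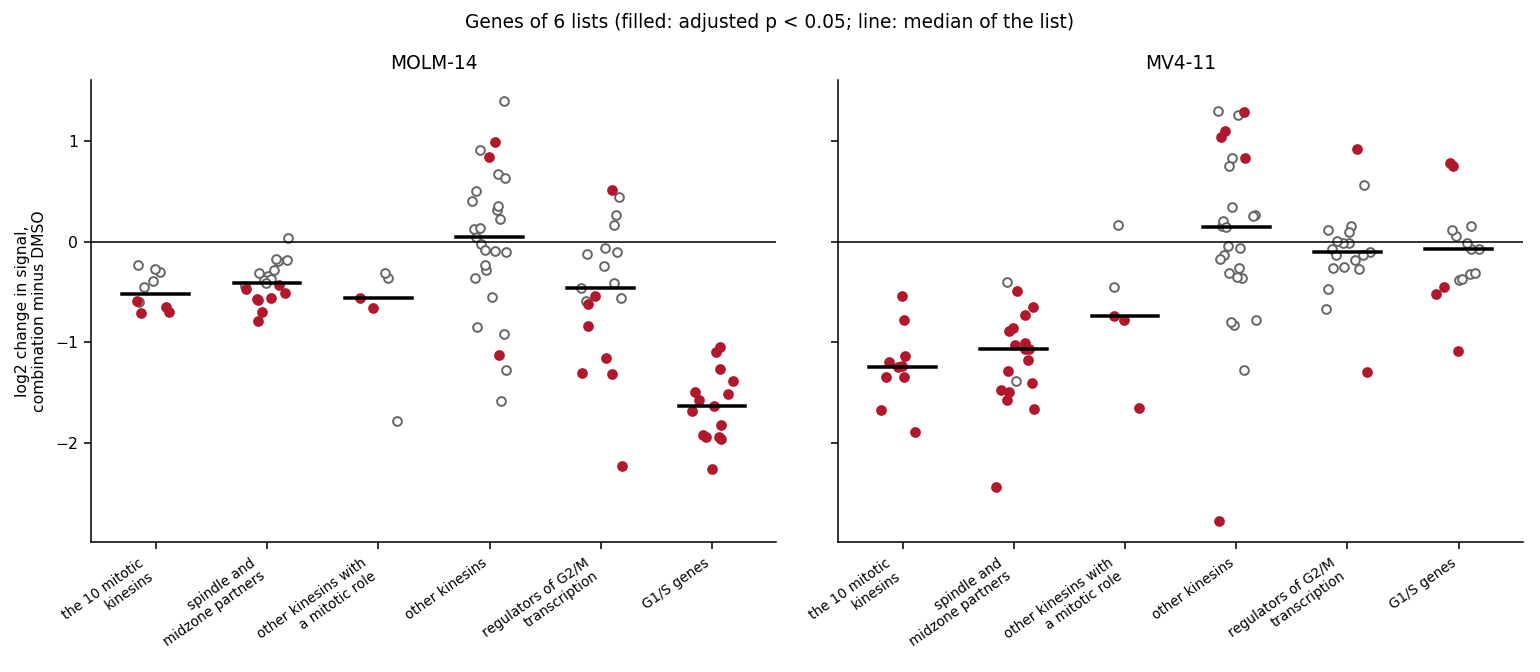
Log2 change with the combination against DMSO (vertical axis) of each gene in 6 lists, in MOLM-14 (left) and MV4-11 (right). Points are genes, filled where the adjusted p was under 0.05, and bars are list medians. The 10 kinesins lie at a median of −0.52 in MOLM-14 and −1.25 in MV4-11, and the 15 G1/S genes at −1.63 and −0.07.

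Markers of other cell types were looked at beside these changes. Of 12 measured genes 0 were called in MOLM-14 with the combination and 1 in MV4-11, PECAM1, which myeloid cells also make (−0.65, adjusted p = 0.0212 from limma). Their summed signal was 5978 to 6440 with the combination, against 5609 to 6427 with DMSO in MOLM-14, and 3583 to 4431 against 5426 to 5926 in MV4-11. PECAM1 alone averaged 2132 with the combination and 3339 with DMSO in MV4-11. The part of these markers in the MV4-11 result was not tested. EPCAM was under 32 on 11 of 12 MOLM-14 and 10 of 12 MV4-11 arrays. CD3D, MS4A1, COL1A2 and ALB were under 32 on some arrays of each line. By contrast, CD3E, CD79A, HBB, KRT8, KRT18, COL1A1 and PECAM1 read 44.8 or more on every array. Of 10 myeloid markers, MPO fell in both lines (−2.87 in MOLM-14 and −0.90 in MV4-11), PTPRC fell (−0.49) and LYZ rose (0.53) in MV4-11, and ITGAM rose in MOLM-14 (0.91).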

How the data were processed

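Total RNA (6 µg) of 24 cultures was hybridised to 1 array each. The deposited values are linear intensities, 1 per probe set, which the authors had brought to a common scale (trimmed mean 500.1 on every array, computed from the values). The sources used here name no software for this step. Signals under 1 (2743 values, 0.209%) were raised to 1 before log2 was taken, and nothing else was normalized. After 62 control probe sets were set aside, 54613 were tested. In the platform annotation 41091 of these name 1 gene, 1801 several and 11721 none here, and 41037 of the 41091 were found by gene identifier. Signals below 32 made up 30.27% of all values, and 3 arrays per group limit the precision. No arrays were identical.

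Differences were tested in limma (3.58.1, under R 4.3.3) over the 12 arrays and 4 groups of a line, or over 24 arrays and 8 groups for differences between lines. The fits were tested on simulated data. Named are the 10 members and their further probe sets, the 2 largest called rises and falls of each list with the combination in each line, and the 5 genes most like the members' mean. The members and lists were chosen with earlier results of these data known. Alternatives were quantile normalization, median centring, raising low signals to 32, removal of dim probe sets, limma-trend, a replicate block, 1 fit over 24 arrays, only the groups compared, removal of the arrays that stood apart, the mean of a gene's probe sets, and removal of each array in turn. No protein sequences were used here.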

Additional observations from a re-analysis of the deposited data

Results flagged for a closer look

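The fall of 4 motors with the combination differed between MOLM-14 and MV4-11 by a test of the difference itself (MOLM-14 change minus MV4-11 change, limma interaction over 24 arrays). It was 1.18 for KIF2C (adjusted p = 8.61e-05), 1.12 for KIF20A (0.00361), 0.95 for KIF18A (0.0318) and 0.69 for KIF14 (0.0254), with the larger fall in MV4-11 in each. The further probe sets of KIF2C and KIF14 gave 1.15 and 0.70. The KIF18A and KIF14 calls were lost without single arrays, as given above.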

How the results depend on the processing

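With only the arrays of the groups compared in the fit, which leaves fewer samples, MV4-11 had 5 members called with the combination against DMSO, 0 against SAHA, 0 against ABT-869 and 0 with SAHA against DMSO. In MOLM-14 the same fits gave 0 with the combination against DMSO, 0 against ABT-869 and 0 with SAHA, and between the lines 2 for the combination effect and 0 with DMSO. Raising low signals to 32, removing dim probe sets and limma-trend gave more calls, in that order 8, 8 and 9 for the MV4-11 combination against SAHA (as reported 5), 4, 5 and 5 for its departure from additivity (as reported 0), 5, 6 and 5 for SAHA in MV4-11 (as reported 1), 8, 8 and 8 for the line difference with the combination (as reported 4), and 1, 1 and 1 each for ABT-869 in MV4-11 and for the line differences with SAHA and with ABT-869 (as reported 0). With 1 fit over all 24 arrays these were 9 for the MV4-11 combination against SAHA, 3 for the departure, 4 for SAHA and 1 for ABT-869 in MV4-11. Centring on medians gave 2 for the MV4-11 combination against SAHA, 1 for SAHA in MOLM-14, 2 for the line difference with the combination and 6 with DMSO, and quantile normalization gave 7 for that line difference. Without the arrays that stood apart, the MV4-11 combination was left with 1 array, which is assumed to vary like the other groups. It then had 0 calls against SAHA (median log2 difference of the members −0.87, as reported −0.90) and 0 against ABT-869 (−1.39, as reported −1.29), and the MOLM-14 combination had 2 against DMSO (−0.49, as reported −0.52). The cause was not tested in these cases.

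Leaving out 1 array at a time gave 8 to 10 calls with the combination in MV4-11, 1 to 2 with SAHA, 0 with ABT-869, 1 to 4 for the combination against SAHA, 8 to 9 against ABT-869 and 0 for the departure. In MOLM-14 it gave 2 to 4 with the combination, 1 to 3 with SAHA, 3 to 4 for the combination against ABT-869, and 0 in the other comparisons. Between lines it gave 2 to 5 for the combination effect, 0 to 1 for SAHA, 0 for ABT-869 and 2 to 3 with DMSO.

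Signs turned in a few small values. KIF11 with SAHA in MV4-11 was 0.01 after centring. KIF20B as the mean of its probe sets, 2 of them dim, was 0.02 for the MV4-11 combination against SAHA, 0.19 against ABT-869 and −0.29 for the line difference, and its departure from additivity was −0.03 without the arrays that stood apart and between −0.04 (without SAHA replicate 1) and 0.08 without single arrays, with −0.00 without DMSO replicate 1 or ABT-869 replicate 2. KIF23 with DMSO was −0.12 between the lines as the mean of its probe sets. KIF18A in MOLM-14, combination against ABT-869, was 0.09 without ABT-869 replicate 1 and 0.07 without combination replicate 2, with −0.24 as the lowest value, and KIFC1 between the lines with DMSO was −0.01 to 0.33, the lowest without MV4-11 DMSO replicate 2. Of the single-gene values, 825 kept their direction and call under the settings other than single arrays, 93 gained a call, 74 lost one and 6 turned.

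Over all probe sets, dim ones included, the replicate numbers did not visibly pair the arrays. Pairing of the members' own values was not tested. In MOLM-14 the members' mean log2 signal was highest in replicate 1 with DMSO (10.95), ABT-869 (10.99) and SAHA (10.44), but not with the combination (10.38). KIF14, KIF23 and KIF4A were highest in replicate 1 in every MOLM-14 group, and the other members were not. In MV4-11 the mean of replicate 1 was highest with DMSO (10.51) and ABT-869 (10.57), and lowest with SAHA (9.97) and the combination (9.17). Over all probe sets, the deviations of same-numbered arrays from their group means correlated at −0.02 to 0.081 in MOLM-14 and −0.04 to 0.047 in MV4-11, over 18 pairs each. Those of differently numbered arrays correlated at −0.093 to 0.045 in MOLM-14 and −0.026 to 0.041 in MV4-11, over 36 pairs each. With the replicate number as a block the MV4-11 combination had 0 members called against SAHA, and 3 further calls were lost (KIF20B, adjusted p = 0.0503 from limma, KIF23 against ABT-869, 0.0897, both in MV4-11, and KIF18A between the lines, 0.0563).

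Centring moved the median of all probe sets from −0.14 to 0.11 for SAHA in MOLM-14 and from −0.15 to 0.11 between the lines with DMSO. The calls over all probe sets were then 3884 higher and 525 lower (as reported 1494 and 1410) and 5355 and 758 (as reported 2708 and 2830). With the combination against DMSO they were 1025 and 1340 in MOLM-14 (as reported 1723 and 1530) and 1974 and 1291 in MV4-11 (as reported 2669 and 2211), and for the MOLM-14 combination against ABT-869 1558 and 1808 (as reported 2447 and 1936), so that in MOLM-14 the more frequent direction turned. The splits also moved for MV4-11 SAHA (536 and 190, as reported 801 and 544), ABT-869 (54 and 210, as reported 203 and 268), combination against SAHA (17 and 153, as reported 100 and 309) and against ABT-869 (1131 and 351, as reported 1032 and 991), for the MOLM-14 combination against SAHA (9 and 78, as reported 5 and 3), and for the line differences with the combination (852 and 1652, as reported 1713 and 1864), SAHA (338 and 69, as reported 327 and 344) and ABT-869 (76 and 21, as reported 106 and 86).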
